A study of Mus musculus with 21 samples.

Results

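Rab GTPases, the small GTP-binding proteins that give the membranes of the endocytic and secretory pathways their identity, were followed at the RNA level in mouse macrophage-like cells and in mouse liver. A gene was counted as a member when its symbol was Rab, a number and at most 1 letter and 1 digit, which selected 59 of the 35550 genes in the cell line tables and 19 of the 5298 genes in the liver table. The cells were RAW264.7, an established mouse macrophage-like line, and RNA sequencing gave 1 value per gene and library in TPM, a length-normalised share of each library's transcripts. At 24 h the wild-type (WT) cells had received 1 µg/mL lipopolysaccharide (LPS, a bacterial cell wall component sensed by Toll-like receptor 4) plus 0.5 mM CTM, 1 µg/mL LPS alone, or phosphate-buffered saline (PBS). At 12 h there were vimentin-knockout (Vim-KO) cells with 1 µg/mL LPS, Vim-KO cells with PBS, WT cells with 1 µg/mL LPS and WT cells with PBS. Each of these 7 groups had 2 libraries. CTM is named here as in the labels, which do not expand it, and they do not say whether the Vim-KO cells are 1 clone.

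The liver libraries came from C57BL/6J mice injected intraperitoneally, with 1 library per group and so no replicate error. They comprised WT liver after 30 mg/kg LPS plus 100 mg/kg CTM, after 30 mg/kg LPS and after PBS, WT liver after LPS with and without depletion of liver macrophages (the labels give no LPS dose for this pair), and liver of TG2-KO mice, which lack transglutaminase 2, after 30 mg/kg LPS and after PBS. The RNA of these 3 sets was extracted on 3 different dates. Whether the 2 libraries of a cell line group were grown apart is not given in the labels, and p-values cover only how far such libraries scatter, part of which can be technical.

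A Rab is loaded with GTP by a guanine nucleotide exchange factor (GEF), recruits effectors such as tethers and motor adaptors to its membrane, and is switched off by a GTPase-activating protein (GAP), most of which carry a TBC domain. A GDP dissociation inhibitor then extracts the lipid-modified protein from the membrane and returns it to the cytosol. In macrophages these switches order phagosome maturation, the recycling of receptors and the release of cytokines, and several of them act on Toll-like receptor 4 itself.

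Of the 8 macrophage markers examined, 7 were at 1 TPM or more in each of the 14 cell line libraries, the exception being Mrc1, and their sum lay between 8949 and 17487 TPM. Markers of hepatocytes, Kupffer cells, B cells and T cells summed to at most 1.06 TPM and those of sinusoidal endothelium and stellate cells to at most 7.48 TPM. Vim, the deleted gene, measured 30.8 and 33.0 TPM in Vim-KO cells with LPS and 17.0 and 18.7 TPM in Vim-KO cells with PBS, against 1375 and 1461 TPM in WT cells with LPS and 1930 and 1877 TPM in WT cells with PBS. TPM keeps no read depth, so the depth behind each value is unknown and no counting interval was possible. Changes below are limma differences of log2(TPM + 1) with their standard error (SE), which understate the change of low genes, and a gene was said to rise, fall or change where the Benjamini-Hochberg adjusted p over all tested genes was under 0.05. In bulk RNA, fewer cells of a type and less RNA per cell cannot be told apart.

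The median gene itself moved. Relative to values rescaled by median-of-ratios size factors, the median log2 change over all tested genes was shifted by −0.24 for LPS at 24 h, by −0.24 for LPS in Vim-KO cells, by −0.35 for LPS in WT cells at 12 h, by −0.16 for LPS plus CTM against PBS and by 0.12 for the difference between genotypes in the LPS change. Counts under that scaling are therefore printed beside the main counts of members, compartments and partner lists.

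Of the 59 members, 41 averaged at least 1 TPM in both cell line experiments and were tested, and the same 18 fell below that level at 24 h and at 12 h. Among the 18, Rab27b, Rab36, Rab38, Rab39b, Rab6b and Rab9b were listed at 0 in all 14 libraries, and Rab17, Rab25, Rab26, Rab30, Rab33a, Rab37, Rab39, Rab3b, Rab3c, Rab40b, Rab42 and Rab44 had some signal, the highest value being 1.80 TPM for Rab44. These include epithelial Rabs (Rab17, Rab25), neuronal or secretory Rab3 forms and the melanosome Rab, Rab38. On the per-length TPM scale, 6 members averaged 100 TPM or more at 24 h and 7 did so at 12 h. The same 6 were highest in both experiments: Rab7 of late endosomes, Rab11a of recycling endosomes, Rab5c of early endosomes, Rab1a and Rab1b of the step between endoplasmic reticulum and Golgi, and Rab14 of the Golgi and endosomes. Rab5c stayed between 144 and 202 TPM in every library, and on the listed values neither it nor Rab7 passed in any of the 8 cell line comparisons. With scaled values Rab5c rose in all 3 LPS against PBS comparisons. Among tested members, exons of Rab11a, Rab18, Rab27a, Rab43 and Rab4b overlap those of another annotated gene on the same strand. Exons of other tested members overlap genes on the opposite strand, among them Rab6a (Mrpl48), Rab5a (Pp2d1), Rab2b (Tox4), Rab11b and Rab7. Part of the reads of these members may be shared.

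**Figure D1:**
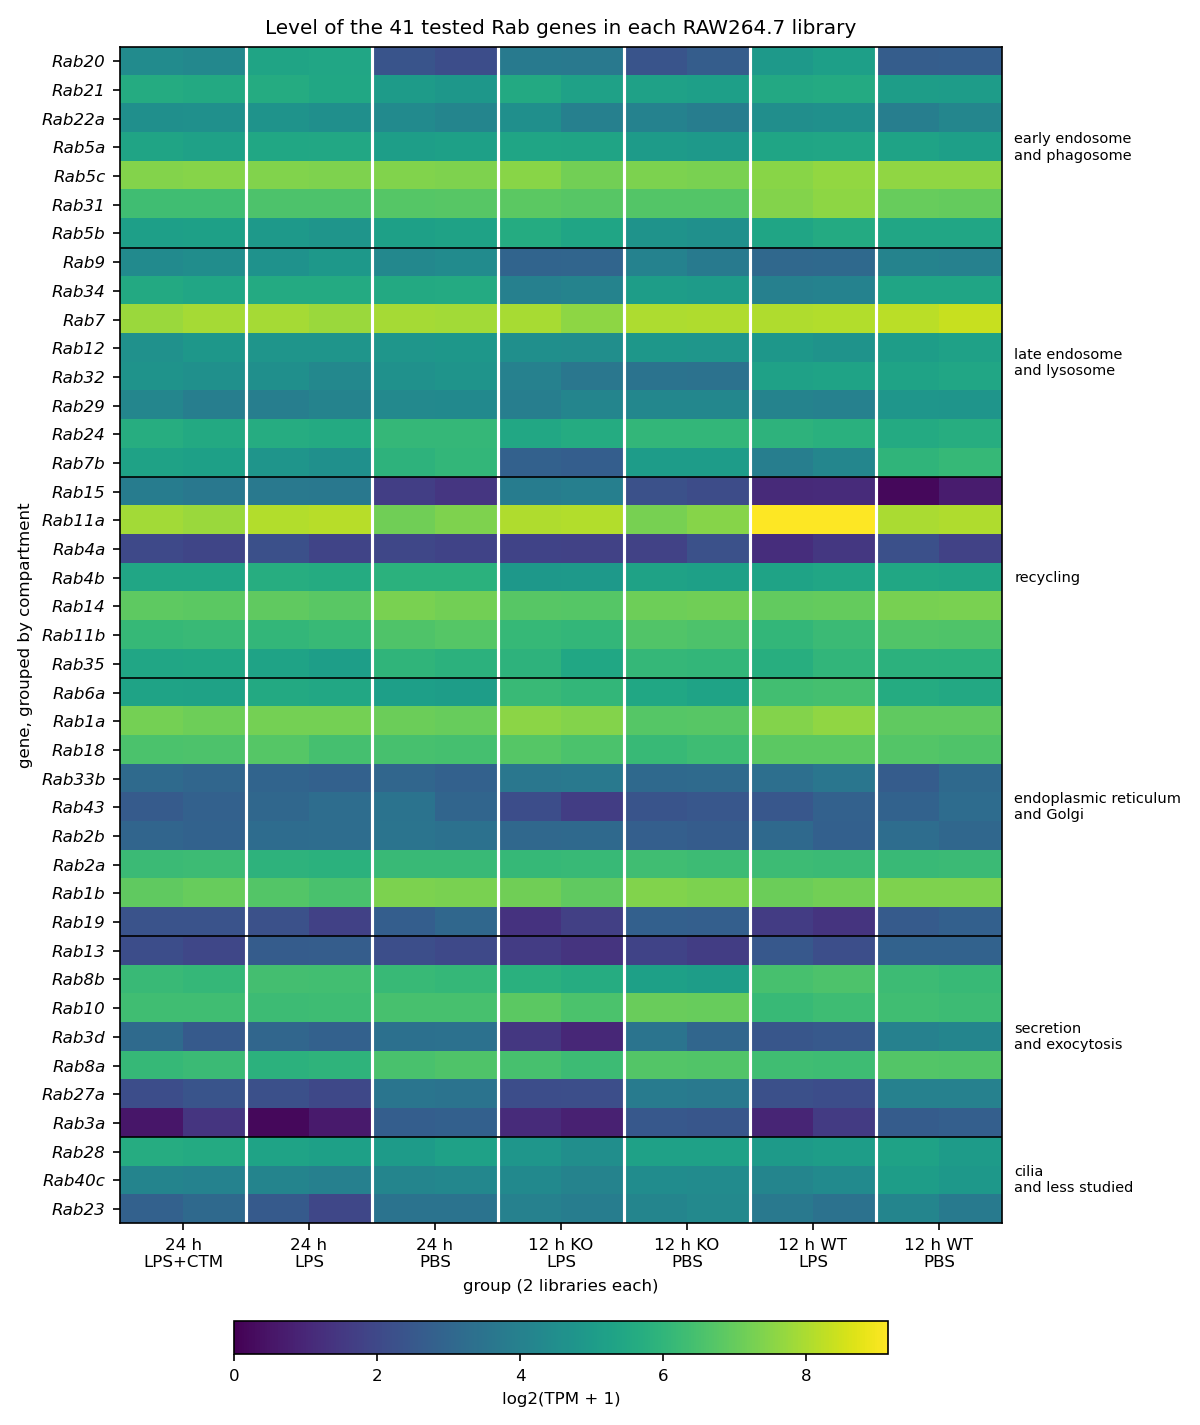
Levels of the 41 tested Rab genes, as log2(TPM + 1), in the 14 RAW264.7 libraries, with genes grouped by the compartment in which the protein is best known and columns grouped by treatment and genotype. Most rows keep 1 colour across the libraries, and rows such as Rab20, Rab15, Rab7b and Rab27a differ between LPS and PBS columns.

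LPS changed 26 of the 41 tested members at 24 h, against 66% of 11030 genes tested. There were 11 that rose and 15 that fell, against 20.9% and 45.1% of all genes, and with scaled values 16 rose and 10 fell. At 12 h LPS changed 30 members in Vim-KO cells, 12 upwards and 18 downwards, against 66.4% of 11115 genes (20.5% higher and 45.8% lower), and with scaled values 16 rose and 10 fell. In WT cells at 12 h it changed 27 members, 11 upwards and 16 downwards, against 70.9% of genes (17.8% higher and 53.1% lower), and with scaled values 19 rose and 9 fell. The members were thus called about as often as other genes. Over all genes, scaled values gave 3486 higher and 3369 lower of 11021 at 24 h. At 12 h they gave 3597 and 3535 of 11097 in Vim-KO cells and 3709 and 3525 of 11097 in WT cells. Their median log2 change was −0.15 at 24 h, −0.24 in Vim-KO and −0.11 in WT cells, beside −0.23, −0.23 and −0.35 for all genes tested.

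In total 6 members rose in all 3 LPS comparisons (8.96% of the 10797 genes tested in both experiments did so): Rab11a, Rab15, Rab1a, Rab20, Rab6a and Rab8b. Another 8 fell in all 3 (29% of genes): Rab11b, Rab14, Rab19, Rab1b, Rab27a, Rab3a, Rab7b and Rab8a. With scaled values 11 rose and 4 fell in all 3. Those that rose were Rab11a, Rab15, Rab18, Rab1a, Rab20, Rab21, Rab22a, Rab5a, Rab5c, Rab6a and Rab8b, and those that fell were Rab19, Rab27a, Rab3a and Rab7b. The shares of genes given here are for unscaled values.

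**Figure D2:**
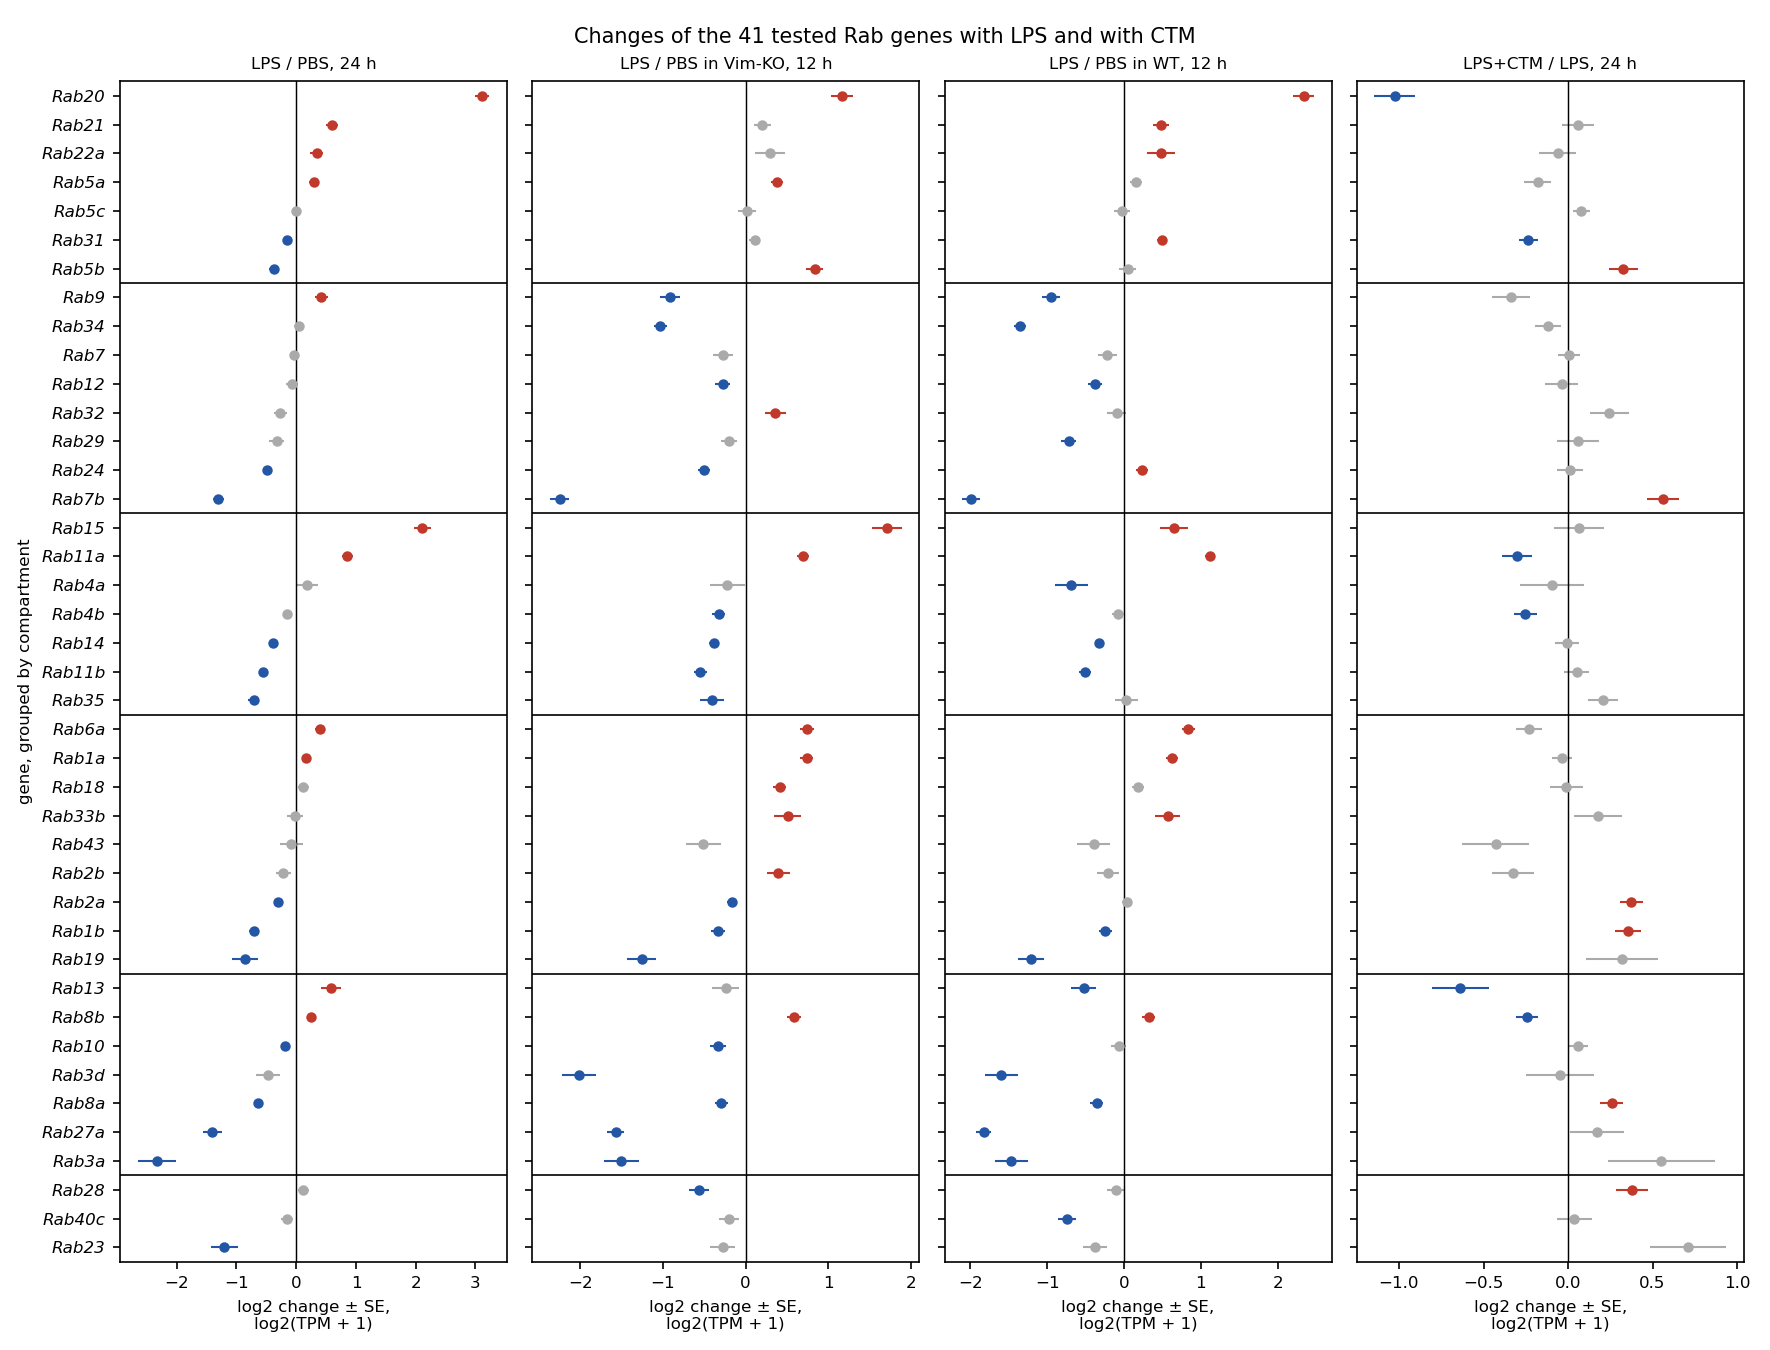
Log2(TPM + 1) change ± SE of each tested Rab gene for LPS against PBS at 24 h, LPS against PBS at 12 h in Vim-KO and in WT cells, and LPS plus CTM against LPS at 24 h. Red points are higher and blue points lower at an adjusted p under 0.05, grey points did not pass, and Rab20 is the highest point in the 24 h and WT LPS panels.

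Among the Rabs of early endosomes and phagosomes, none fell with LPS at 12 h. Of the 7 tested, 4 rose at 24 h (Rab20, Rab21, Rab22a and Rab5a) and 2 fell (Rab31 and Rab5b). At 12 h, 3 rose in Vim-KO cells (Rab20, Rab5a and Rab5b) and 4 rose in WT cells (Rab20, Rab21, Rab22a and Rab31). With scaled values 5 rose at 24 h and all 7 rose at 12 h in each genotype, with no decrease in any. These and the following compartment counts are small. Unscaled counts stand beside 20.9% of all genes higher and 45.1% lower at 24 h. At 12 h the unscaled shares were 20.5% and 45.8% in Vim-KO cells and 17.8% and 53.1% in WT cells. Scaled counts stand beside 3486 of 11021 genes higher and 3369 lower at 24 h. For 12 h the scaled counts were 3597 and 3535 of 11097 in Vim-KO cells and 3709 and 3525 of 11097 in WT cells.

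Rab20, which acts on endosomes and maturing phagosomes, had the largest LPS increase of any member at 24 h. It measured 39.3 and 41.3 TPM with LPS, against 4.14 and 3.41 TPM with PBS, 10.7 times the PBS mean. Both LPS libraries were far above both PBS libraries (log2 change 3.12 ± 0.12 SE, limma adjusted p = 1.39e-06). At 12 h it measured 12.1 and 11.8 TPM in Vim-KO cells with LPS against 4.17 and 5.47 TPM in Vim-KO cells with PBS, and 29.7 and 35.0 TPM in WT cells with LPS against 5.48 and 5.64 TPM in WT cells with PBS. The increase was 1.17 ± 0.13 in Vim-KO and 2.34 ± 0.13 in WT cells (limma adjusted p = 0.000113 and 2.16e-06). The Rab20 gene lies on chromosome 8 (11453518 to 11478710, minus strand, GRCm38) and its exons overlap those of E230013L22Rik on the opposite strand. Whether the counting used strand is not stated, so reads of that pair may not have been told apart.

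Rab21, an early endosome Rab best known for integrin traffic, moved less. Its level was 47.7 and 42.9 TPM with LPS at 24 h, against 31.5 and 27.6 TPM with PBS (log2 change 0.60 ± 0.10, limma adjusted p = 0.0012). In WT cells at 12 h it was 45.1 and 46.9 TPM with LPS against 33.2 and 32.0 TPM with PBS (0.48 ± 0.10, limma adjusted p = 0.00355). Vim-KO cells gave 45.6 and 36.5 TPM with LPS against 36.2 and 34.5 TPM with PBS, which did not pass (adjusted p = 0.122), although the libraries did not overlap. Rab20 and Rab21 were also the members of this group listed as higher after LPS in WT liver. Both have a CACGTG E-box in the 250 bases before their RefSeq start. In the annotation used for gene positions Rab20 starts at 11478710, inside its window, which places its E-box within the gene. The 2 windows are shown (RefSeq, GRCm38.p6, minus strand at chr8:11478641-11478890 and chr10:115315592-115315841, read 5′ to 3′), with the E-box in capitals at bases 205 to 210 of Rab20 and 221 to 226 of Rab21.
Rab20: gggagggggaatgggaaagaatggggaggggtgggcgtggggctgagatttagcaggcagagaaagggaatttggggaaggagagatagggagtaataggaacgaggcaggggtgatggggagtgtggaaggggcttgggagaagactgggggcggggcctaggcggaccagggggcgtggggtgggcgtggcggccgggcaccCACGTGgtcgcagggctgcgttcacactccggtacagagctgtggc
Rab21: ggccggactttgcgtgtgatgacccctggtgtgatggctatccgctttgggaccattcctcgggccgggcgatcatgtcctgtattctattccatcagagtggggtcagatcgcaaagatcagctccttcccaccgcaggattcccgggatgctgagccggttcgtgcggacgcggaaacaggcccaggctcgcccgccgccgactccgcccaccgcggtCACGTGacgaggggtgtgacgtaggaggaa
Windows of 300 bases, 250 before and 50 after a start, were found for 48 member genes (60 windows), and CACGTG occurred on either strand in 6 of these 60 windows, against 7.15% of 32851 mouse windows. Besides Rab20 and Rab21 these belong to Rab5a, which rose with LPS at 24 h, and to Rab23, Rab24 and Rab27a, which fell with LPS at 24 h. The palindromic TGANTCA (AP-1) occurred in 3 of the 60, against 7.81% of windows, an interferon response type element in 1, against 3.44%, and the NF-kB consensus in 2, against 4.51%. The median GC content of the members' windows was 61.2%, against 52.7% for all windows. A match of letters describes the window and does not show binding.

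Rab5a, the classical Rab of early endosome fusion, measured 42.2 and 43.2 TPM with LPS at 24 h, against 33.8 and 35.5 TPM with PBS (log2 change 0.29 ± 0.08, limma adjusted p = 0.0129). This call was lost without PBS library 1 (0.26, adjusted p = 0.0739). Rab31, which serves traffic between the Golgi and endosomes, measured 94.6 and 93.8 TPM with LPS against 103.9 and 106.7 TPM with PBS at 24 h (−0.16, limma adjusted p = 0.0404). That small decrease lost its call without any 1 of the 6 libraries (−0.18 to −0.14, adjusted p up to 0.161), and under scaling it became an increase of 0.10 that did not pass. In WT cells at 12 h Rab31 rose, with 171.4 and 188.8 TPM with LPS against 127.7 and 126.3 TPM with PBS (0.50 ± 0.07, limma adjusted p = 0.000225).

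Among the 8 tested Rabs of late endosomes and lysosomes, LPS raised 1 and lowered 2 at 24 h, and it raised 1 and lowered 5 in each genotype at 12 h. With scaled values it raised 3 and lowered 2 at 24 h, so the balance turned, and raised 1 and lowered 4 in each genotype at 12 h. Rab7b, which sorts from late endosomes to the Golgi and in mouse macrophages promotes the lysosomal degradation of Toll-like receptor 4, fell in all 3 comparisons. It measured 26.1 and 22.8 TPM with LPS against 59.1 and 64.5 TPM with PBS at 24 h. At 12 h it measured 6.23 and 5.65 TPM with LPS against 32.0 and 32.0 TPM with PBS in Vim-KO cells. In WT cells the values were 13.8 and 17.5 TPM with LPS against 61.4 and 68.2 TPM with PBS. Every LPS library was below every PBS library of its own genotype and time, and the log2 changes were −1.31 ± 0.09, −2.25 ± 0.12 and −1.99 ± 0.12 (limma adjusted p = 2.43e-05, 1.43e-06 and 2.73e-06).

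Its namesake Rab7, the Rab of fusion with lysosomes, measured 237.3 and 216.0 TPM with LPS against 236.8 and 230.6 TPM with PBS at 24 h. On the listed values Rab7 passed no test. Rab7b amounted to 0.110 and 0.105 of the Rab7 level with LPS at 24 h, against 0.250 and 0.280 with PBS.

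Rab34, linked to phagosome maturation and lysosome position, and Rab9, which returns mannose 6-phosphate receptors to the Golgi, gave different values at the 2 times. Rab34 measured 14.9 and 15.9 TPM with LPS against 33.2 and 31.7 TPM with PBS in Vim-KO cells at 12 h. In WT cells it was at 14.6 and 15.5 TPM with LPS against 40.3 and 40.0 TPM with PBS. Both decreases passed (−1.03 ± 0.08 and −1.36 ± 0.08, limma adjusted p = 1.12e-05 and 2.31e-06). At 24 h the values were 47.6 and 47.5 TPM with LPS, against 45.3 and 46.6 TPM with PBS, a difference that did not pass (0.05, adjusted p = 0.607). Rab9 measured 6.68 and 6.89 TPM with LPS against 15.4 and 12.2 TPM with PBS in Vim-KO cells at 12 h. In WT cells it was at 7.43 and 7.71 TPM with LPS against 15.8 and 15.2 TPM with PBS. It fell in both genotypes (−0.92 and −0.95, limma adjusted p = 0.000237 and 0.00018). At 24 h it was 24.0 and 28.4 TPM with LPS against 18.4 and 20.2 TPM with PBS (0.42, limma adjusted p = 0.0136), a call lost without PBS library 1 or LPS library 3 (0.36 and 0.30, adjusted p up to 0.0800). The 12 h and 24 h cells were separate experiments, and no test of the difference between times was made.

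Of the 7 tested recycling Rabs, LPS raised 2 and lowered 3 at 24 h, raised 2 and lowered 4 in Vim-KO cells and raised 2 and lowered 3 in WT cells at 12 h. With scaled values the counts were 2 higher and 2 lower at 24 h, 2 and 1 in Vim-KO cells, and 4 and 0 in WT cells. The 2 forms of Rab11 moved in opposite directions. Rab11a, the Rab of recycling endosomes that in human monocytes carries Toll-like receptor 4 to phagosomes, measured 267.9 and 286.4 TPM with LPS against 140.3 and 165.8 TPM with PBS at 24 h (log2 change 0.86 ± 0.09, limma adjusted p = 0.000116). At 12 h it measured 262.0 and 273.3 TPM with LPS against 154.4 and 175.2 TPM with PBS in Vim-KO cells. WT cells gave 557.3 and 561.4 TPM with LPS against 251.4 and 262.3 TPM with PBS. It rose in both (0.70 ± 0.07 and 1.12 ± 0.07, limma adjusted p = 5.79e-05 and 3.86e-06), and with LPS it was the most abundant member in WT cells at 12 h. Rab11b, its paralog, measured 65.7 and 70.5 TPM with LPS against 96.5 and 103.8 TPM with PBS at 24 h, and fell there and in both genotypes at 12 h (−0.55, −0.55 and −0.51, limma adjusted p = 0.000458, 0.00037 and 0.000505). In WT cells at 12 h the scaled decrease of Rab11b (−0.13) did not pass.

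The ratio of Rab11a to Rab11b therefore stood at 4.08 and 4.06 with LPS against 1.45 and 1.60 with PBS at 24 h. At 12 h it was 3.81 and 4.21 with LPS against 1.53 and 1.84 with PBS in Vim-KO cells. In WT cells it was 8.54 and 7.60 with LPS against 2.50 and 2.68 with PBS. Similar shifts within pairs were seen for Rab1a and Rab1b, at 1.42 and 1.64 with LPS against 0.840 and 0.816 with PBS at 24 h, and for Rab8b and Rab8a, at 1.44 and 1.33 with LPS against 0.779 and 0.703 with PBS. Not every pair shifted so. At 24 h Rab2a to Rab2b overlapped, at 7.14 and 6.43 with LPS against 6.89 and 7.44 with PBS. Rab5c to Rab5a moved less, at 3.98 and 3.82 with LPS against 4.97 and 4.65 with PBS. These ratios do not depend on library scaling. Close paralogs can share reads, and how the authors' quantification divided them is not stated in the sources used here.

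Rab15, an endosomal Rab that slows receptor recycling, was a low gene that rose with LPS. It measured 12.0 and 11.6 TPM with LPS against 2.23 and 1.73 TPM with PBS at 24 h (log2 change 2.11 ± 0.15, limma adjusted p = 2.04e-05). Vim-KO cells at 12 h had 13.4 and 14.5 TPM with LPS against 3.83 and 3.32 TPM with PBS (1.71 ± 0.18, limma adjusted p = 7.28e-05). WT cells at 12 h had only 1.11 and 1.18 TPM with LPS against 0.155 and 0.621 TPM with PBS (0.65 ± 0.18, limma adjusted p = 0.0124), and that call was lost without PBS library 1 (0.40, adjusted p = 0.0745) or LPS library 2 (0.62, adjusted p = 0.0522). Levels were not tested between the 2 experiments, whose RNA was extracted on different dates. One of 4 listed starts of Rab15 is shown because its 250-base window (RefSeq, GRCm38.p6, chr12:76818375-76818624, minus strand) holds, in capitals, TGANTCA at bases 6 to 12 and 2 overlapping matches to the NF-kB consensus at bases 155 to 164 and 156 to 165. Which start the cells used was not measured.
Rab15: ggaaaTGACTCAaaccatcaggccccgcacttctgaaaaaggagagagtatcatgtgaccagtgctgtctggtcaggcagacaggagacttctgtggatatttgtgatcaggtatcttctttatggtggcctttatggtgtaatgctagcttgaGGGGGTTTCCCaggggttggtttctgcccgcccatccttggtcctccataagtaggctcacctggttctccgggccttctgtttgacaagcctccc

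Rab14 fell in all 3 LPS comparisons (−0.38 at 24 h, −0.38 in Vim-KO and −0.32 in WT cells), but under scaling none of these passed, and in WT cells the scaled value was 0.06. Rab35, of fast recycling to the plasma membrane, measured 38.5 and 34.0 TPM with LPS against 62.7 and 57.3 TPM with PBS at 24 h (−0.71 ± 0.09, limma adjusted p = 0.000332). It also fell in Vim-KO cells at 12 h, with 58.4 and 42.6 TPM with LPS against 67.1 and 65.9 TPM with PBS. With scaled values only 1 recycling Rab fell there. In WT cells at 12 h Rab35 was at 52.4 and 64.3 TPM with LPS against 57.1 and 56.5 TPM with PBS, which overlapped and did not pass.

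Of the 9 tested Rabs of the endoplasmic reticulum and Golgi, LPS raised 2 and lowered 3 at 24 h, raised 5 and lowered 3 in Vim-KO cells and raised 3 and lowered 2 in WT cells at 12 h. With scaled values it raised 3 and lowered 2 at 24 h, turning the balance there, and raised 5 and lowered 1 in each genotype at 12 h. Rab6a, which directs retrograde and secretory traffic at the Golgi, measured 45.4 and 43.4 TPM with LPS against 34.4 and 32.6 TPM with PBS at 24 h (log2 change 0.40, limma adjusted p = 0.00286). At 12 h it measured 72.0 and 65.8 TPM with LPS against 42.6 and 38.7 TPM with PBS in Vim-KO cells. The WT libraries had 81.1 and 86.7 TPM with LPS against 48.4 and 44.7 TPM with PBS. Both groups of LPS libraries lay above their PBS libraries (0.75 in Vim-KO and 0.84 in WT cells, limma adjusted p = 0.000101 and 4.92e-05). Rab1a, needed for export from the endoplasmic reticulum, measured 185.4 and 171.1 TPM with LPS against 105.9 and 106.7 TPM with PBS in Vim-KO cells. In WT cells it stood at 173.8 and 196.6 TPM with LPS against 120.3 and 118.8 TPM with PBS. It rose in both genotypes (0.74 in Vim-KO and 0.62 in WT cells, limma adjusted p = 5.57e-05 and 0.000133). Its increase at 24 h was small (0.17, adjusted p = 0.043) and lost its call without any 1 of the 6 libraries (0.12 to 0.21). Rab1b, whose protein is nearly identical, measured 103.5 and 90.0 TPM with LPS against 161.1 and 156.0 TPM with PBS at 24 h (−0.71 ± 0.08, limma adjusted p = 0.000189). Its smaller decreases at 12 h did not pass under scaling, where the WT value became 0.14. Rab19, a less studied Golgi Rab, measured 3.86 and 2.41 TPM with LPS against 5.62 and 7.21 TPM with PBS at 24 h (−0.86, limma adjusted p = 0.00928), a call lost without PBS library 2 (−0.70, adjusted p = 0.0643), and at 12 h it fell in both genotypes (−1.26 in Vim-KO and −1.21 in WT cells).

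Of the 7 tested secretory Rabs, LPS raised 2 and lowered 4 at 24 h, and raised 1 and lowered 5 in each genotype at 12 h. More genes fell than rose over the whole table as well. With scaled values 2 secretory Rabs rose and 3 fell at 24 h, 1 rose and 3 fell in Vim-KO cells, and 2 rose and 3 fell in WT cells. Rab27a, which docks secretory granules, measured 3.66 and 2.96 TPM with LPS against 10.6 and 10.2 TPM with PBS at 24 h. At 12 h Vim-KO cells had 3.48 and 3.58 TPM with LPS against 12.9 and 12.0 TPM with PBS, and WT cells 3.64 and 3.47 TPM with LPS against 15.2 and 15.1 TPM with PBS. All LPS libraries were below 4 TPM and all PBS libraries above 10 TPM. The log2 changes were −1.41 ± 0.16, −1.57 ± 0.10 and −1.83 ± 0.10 (limma adjusted p = 0.000198, 3.93e-06 and 1.71e-06).

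Rab3a, a Rab of regulated exocytosis, measured 0.133 and 0.596 TPM with LPS against 5.67 and 5.91 TPM with PBS at 24 h (−2.34 ± 0.32, limma adjusted p = 0.000526), and it fell at 12 h in Vim-KO cells (−1.50 ± 0.21) and in WT cells (−1.47 ± 0.21). Its exons overlap those of Mpv17l2 on the opposite strand. Rab3d, of secretory granules, measured 1.82 and 1.00 TPM with LPS against 10.4 and 7.05 TPM with PBS in Vim-KO cells at 12 h. In WT cells it was at 4.38 and 4.85 TPM with LPS against 15.2 and 16.8 TPM with PBS. It fell in both (−2.02 ± 0.21 in Vim-KO and −1.59 ± 0.21 in WT cells, limma adjusted p = 6.83e-05 and 0.000236). At 24 h it measured 7.07 and 6.14 TPM with LPS against 9.46 and 9.54 TPM with PBS, which did not pass (−0.47, adjusted p = 0.0745).

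Rab8b and Rab8a, paralogs that serve polarised exocytosis, went opposite ways at 24 h. Rab8b measured 83.0 and 81.3 TPM with LPS against 70.6 and 67.6 TPM with PBS (0.25, limma adjusted p = 0.0126), a call lost without PBS library 2 (0.22, adjusted p = 0.0719). Rab8a measured 57.7 and 61.1 TPM with LPS against 90.6 and 96.2 TPM with PBS (−0.64 ± 0.07, limma adjusted p = 0.000165), and its decreases at 12 h did not pass under scaling, where the WT value became 0.02. Rab10, which in mouse macrophages carries Toll-like receptor 4 to the cell surface, fell by 0.18 at 24 h (adjusted p = 0.0284), a call lost without 5 of the 6 libraries in turn (−0.20 to −0.16), with a scaled value of 0.08. Rab13, linked to junctions and exocytosis, measured 5.37 and 5.44 TPM with LPS against 3.53 and 3.01 TPM with PBS at 24 h (0.59, limma adjusted p = 0.0163). Without PBS library 2, LPS library 2 or LPS library 3 that call was lost (0.50, 0.60 and 0.58). Of the 3 less studied Rabs tested, Rab23, an inhibitor of Hedgehog signalling, fell at 24 h to 5.04 and 2.81 TPM with LPS, against 10.1 and 10.1 TPM with PBS (−1.21 ± 0.23, limma adjusted p = 0.00251). Rab28, a ciliary Rab, fell in Vim-KO cells at 12 h (−0.56) and Rab40c, which joins a ubiquitin ligase, fell in WT cells at 12 h (−0.74).

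**Figure D3:**
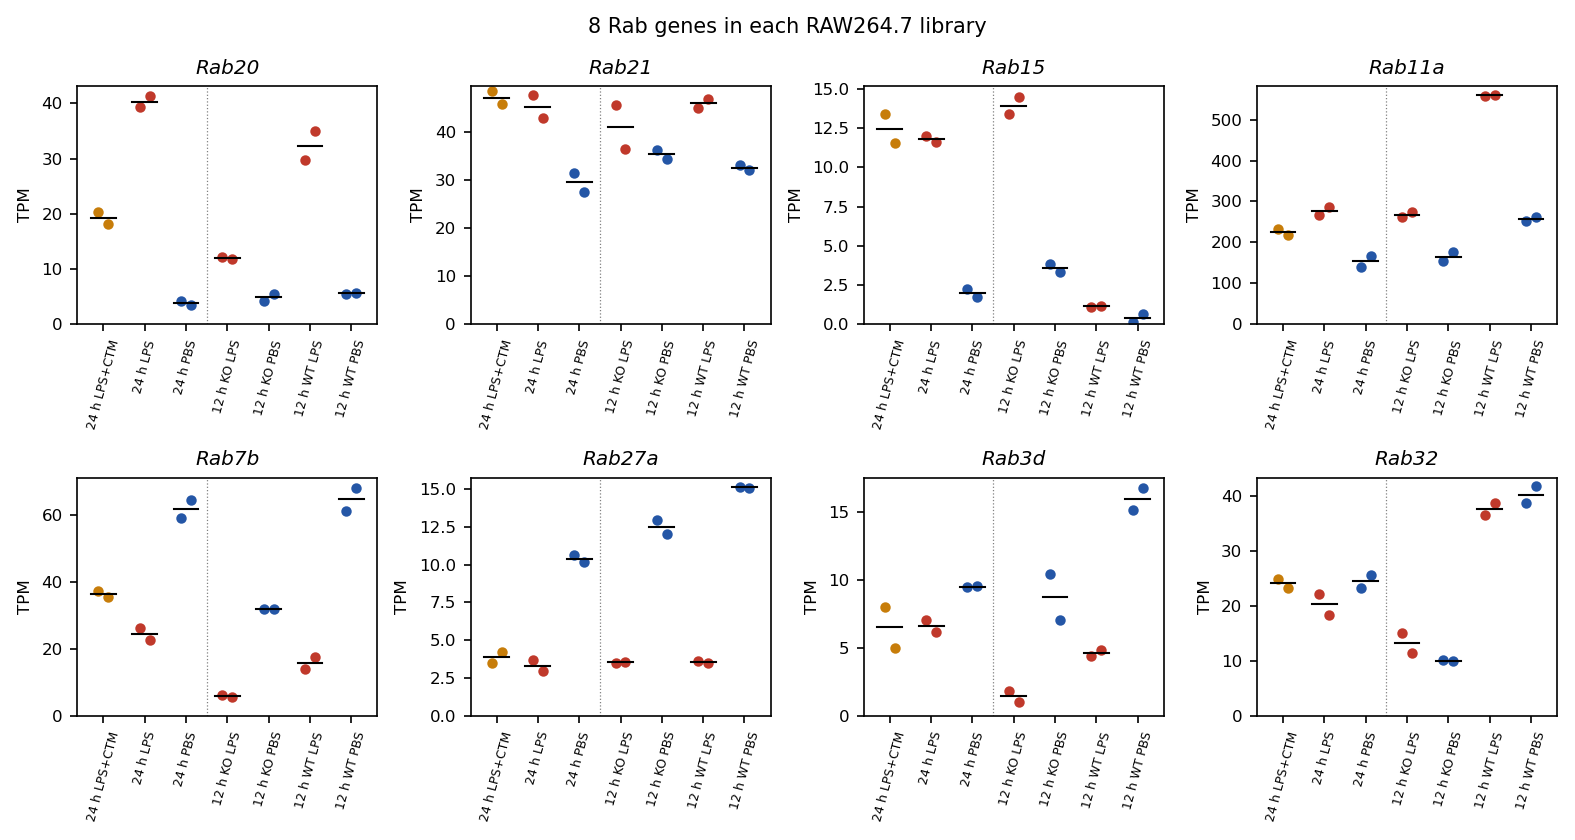
TPM of 8 Rab genes in each RAW264.7 library (points) with the group mean (line), on linear axes that start at 0. Rab20 with LPS stands at 39.3 and 41.3 TPM at 24 h, at 12.1 and 11.8 TPM in Vim-KO cells and at 29.7 and 35.0 TPM in WT cells at 12 h, and Rab27a stays between 2.96 and 4.20 TPM in every library with LPS, those with CTM included.

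The genes that load, unload and read Rabs were counted from lists of genes of known function, chosen with earlier results of these data known. At 24 h LPS raised 6 and lowered 4 of 10 tested genes of prenylation, escort and membrane extraction, raised 8 and lowered 10 of 35 GEFs, raised 8 and lowered 6 of 35 TBC-domain GAPs, and raised 19 and lowered 9 of 47 effectors and tethers, against 20.9% of all genes higher and 45.1% lower. At 12 h, where 20.5% of genes were higher and 45.8% lower in Vim-KO cells and 17.8% and 53.1% in WT cells, the effectors divided as 13 higher and 16 lower in Vim-KO cells and 10 higher and 24 lower in WT cells, and the GAPs as 6 higher and 15 lower in Vim-KO cells and 1 higher and 18 lower in WT cells. The GEFs divided as 10 higher and 15 lower in Vim-KO cells and 8 higher and 18 lower in WT cells, and the escort list as 4 and 3 in Vim-KO cells and 3 and 3 in WT cells. With scaled values the effectors divided as 23 higher and 4 lower at 24 h, 20 higher and 10 lower in Vim-KO cells and 18 higher and 12 lower in WT cells, and the GAPs as 16 and 6, 11 and 11, and 8 and 12. Scaling turned the balance of the GEFs at 24 h, to 12 higher and 7 lower, and in Vim-KO cells, to 16 and 9. It gave 13 and 15 GEFs in WT cells, and 6 and 4, 6 and 1, and 7 and 2 for the escort list. Over all genes the scaled counts were 3486 higher and 3369 lower of 11021 at 24 h. For 12 h they were 3597 and 3535 of 11097 in Vim-KO cells and 3709 and 3525 of 11097 in WT cells.

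The following 4 genes are examples from the GEF and effector lists that rose at 24 h, and members of both lists also fell. Rabgef1, a GEF for Rab5, measured 94.1 and 100.8 TPM with LPS against 14.7 and 19.9 TPM with PBS at 24 h (log2 change 2.44 ± 0.14, limma adjusted p = 8.66e-06). Eea1, the Rab5 effector that tethers early endosomes, measured 120.4 and 113.4 TPM with LPS against 33.1 and 31.9 TPM with PBS (1.82 ± 0.08, limma adjusted p = 1.97e-06). Rab11fip1, a Rab11 effector, measured 29.4 and 26.1 TPM with LPS against 8.12 and 8.26 TPM with PBS (1.64 ± 0.10, limma adjusted p = 1.2e-05). Micall2, an effector of Rab8 and Rab13, averaged 32.7 ± 0.0174 TPM with LPS and 6.03 ± 0.187 TPM with PBS (SD, n = 2 each). Non-overlapping groups were a condition for naming a partner gene.

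The largest changes among the GAPs went both ways. Tbc1d9 measured 27.7 and 27.8 TPM with LPS against 1.63 and 1.01 TPM with PBS at 24 h (3.65 ± 0.16, limma adjusted p = 2.58e-06). Rabgap1l rose too, with 22.5 and 16.0 TPM with LPS against 2.35 and 5.08 TPM with PBS at 24 h (2.15 ± 0.30, limma adjusted p = 0.000549). Tbc1d16 measured 12.1 and 9.22 TPM with LPS against 36.3 and 34.4 TPM with PBS at 24 h (−1.65 ± 0.13, limma adjusted p = 3.94e-05), and fell in Vim-KO cells (−2.45 ± 0.12) and in WT cells (−3.07 ± 0.12) at 12 h. Of the escort proteins that present new Rabs for lipid attachment, Chm averaged 18.8 ± 1.79 TPM with LPS and 9.42 ± 0.556 TPM with PBS at 24 h, and Chml averaged 2.66 ± 0.0119 TPM with LPS and 8.54 ± 0.573 TPM with PBS (SD, n = 2 each), an increase and a decrease that both passed (0.93 and −1.38, limma adjusted p = 0.000291 and 0.000945).

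Adding CTM to LPS changed 12 of the 41 members relative to LPS alone at 24 h, against 25.6% of all genes. The 6 that rose, against 16.1% of genes, were Rab1b, Rab28, Rab2a, Rab5b, Rab7b and Rab8a, and 6 fell (Rab11a, Rab13, Rab20, Rab31, Rab4b and Rab8b), against 9.45%. With scaled values 4 rose and 10 fell, against 1272 genes higher and 1539 lower of 11021. The count was 7 without LPS library 2, 3 without LPS library 3, 3 without LPS plus CTM library 2 and 2 without LPS plus CTM library 3. With replicate number as a block it was 6.

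Rab20 kept its call under every alternative tried, and Rab7b under all but a minimum log2 change of 1. Rab20 measured 20.4 and 18.2 TPM with LPS plus CTM, against 39.3 and 41.3 TPM with LPS (log2 change −1.03 ± 0.12, limma adjusted p = 0.00175). Rab7b measured 37.4 and 35.6 TPM with LPS plus CTM, against 26.1 and 22.8 TPM with LPS (0.56 ± 0.09, limma adjusted p = 0.0063). Both stood between the LPS and the PBS libraries with CTM present. Rab15, by comparison, measured 13.4 and 11.5 TPM with LPS plus CTM, which overlapped the 12.0 and 11.6 TPM of LPS alone, and Rab27a at 3.51 and 4.20 TPM overlapped the 3.66 and 2.96 TPM of LPS (adjusted p = 0.772 and 0.458).

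Rab11a measured 232.2 and 217.2 TPM with LPS plus CTM against 267.9 and 286.4 TPM with LPS (−0.30, limma adjusted p = 0.0407), and this call was lost in 4 of 6 leave-one-out fits (−0.35 to −0.25, adjusted p up to 0.191). Relative to PBS, LPS plus CTM changed 17 members, 5 upwards and 12 downwards, against 52.9% of genes (17.4% higher and 35.5% lower). With scaled values 13 members rose and 10 fell, against 2871 genes higher and 2512 lower of 11021. This comparison shares its LPS plus CTM libraries with the previous one and its PBS libraries with that of LPS alone. There Rab20 remained 5.11 times the PBS mean (2.09 ± 0.12, limma adjusted p = 1.64e-05).

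Among the partners, Rabgef1, Appl2 and the GAP Rabgap1l fell when CTM was added. Rabgap1l measured 8.06 and 6.21 TPM with LPS plus CTM against 22.5 and 16.0 TPM with LPS (−1.31 ± 0.30, limma adjusted p = 0.0182). Rabgef1 measured 50.4 and 43.6 TPM with LPS plus CTM against 94.1 and 100.8 TPM with LPS (−1.04 ± 0.14, limma adjusted p = 0.00301). Appl2, a Rab5 effector of signalling endosomes, measured 21.4 and 20.2 TPM with LPS plus CTM against 42.9 and 45.9 TPM with LPS (−1.06 ± 0.10, limma adjusted p = 0.000865). Of the 47 effectors and tethers tested 3 rose and 9 fell, and with scaled values none rose and 14 fell. Of the 35 GEFs 1 rose and 3 fell, of the 35 GAPs 3 rose and 2 fell, and of the 10 escort and extraction genes 1 rose and 1 fell, against 25.6% of all genes called (16.1% higher and 9.45% lower). With scaled values 1 GEF rose and 5 fell, 2 GAPs rose and 6 fell, and 1 escort gene rose and 4 fell. Over all genes the scaled counts were 1272 higher and 1539 lower of 11021.

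Between genotypes, more of the members that differed were lower than higher in Vim-KO cells. With LPS 16 of 41 differed, 2 higher and 14 lower, against 44.7% of all genes (24.1% higher and 20.6% lower), and with PBS 19 differed, 3 higher and 16 lower, against 43% (17.7% higher and 25.4% lower). The members' median log2 difference was −0.19 with LPS and −0.19 with PBS, beside 0.04 and −0.05 for all genes. With scaled values the splits were 2 higher and 19 lower with LPS, and 3 higher and 14 lower with PBS. Over all 11097 genes the scaled counts were 2270 higher and 2841 lower with LPS, and 2357 and 2550 with PBS. Rab10 and Rab15 were higher in Vim-KO cells under both treatments, and Rab11a, Rab13, Rab31, Rab32, Rab3d, Rab43, Rab7b and Rab8b were lower under both (11.4% and 12.9% of genes). Loss of Vim cannot be told apart here from other differences between the 2 cell cultures or a clone. In the separate 24 h experiment, WT cells with PBS had 140.3 and 165.8 TPM of Rab11a, near the 12 h Vim-KO values with PBS. Their 59.1 and 64.5 TPM of Rab7b were near the 12 h WT values with PBS, and levels were not tested between experiments.

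The summed macrophage markers moved with genotype, at 11995 and 11278 TPM in Vim-KO cells with LPS and 8974 and 8949 TPM in Vim-KO cells with PBS, against 13727 and 14521 TPM in WT cells with LPS and 17487 and 17400 TPM in WT cells with PBS, and 7 of the 8 markers were at 1 TPM or more in each. The summed neutrophil list was 14.4 and 13.7 TPM in Vim-KO cells with LPS and 4.81 and 5.17 TPM in Vim-KO cells with PBS, against 911 and 896 TPM in WT cells with LPS and 8.16 and 8.83 TPM in WT cells with PBS. S100a8 alone gave 908 and 892 TPM of the WT LPS sums, at most 3 of the 7 markers reached 1 TPM in a library, and Ly6g and Retnlg were listed at 0 in all 8 libraries. The part of either list in the genotype results was not tested.

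**Figure D4:**
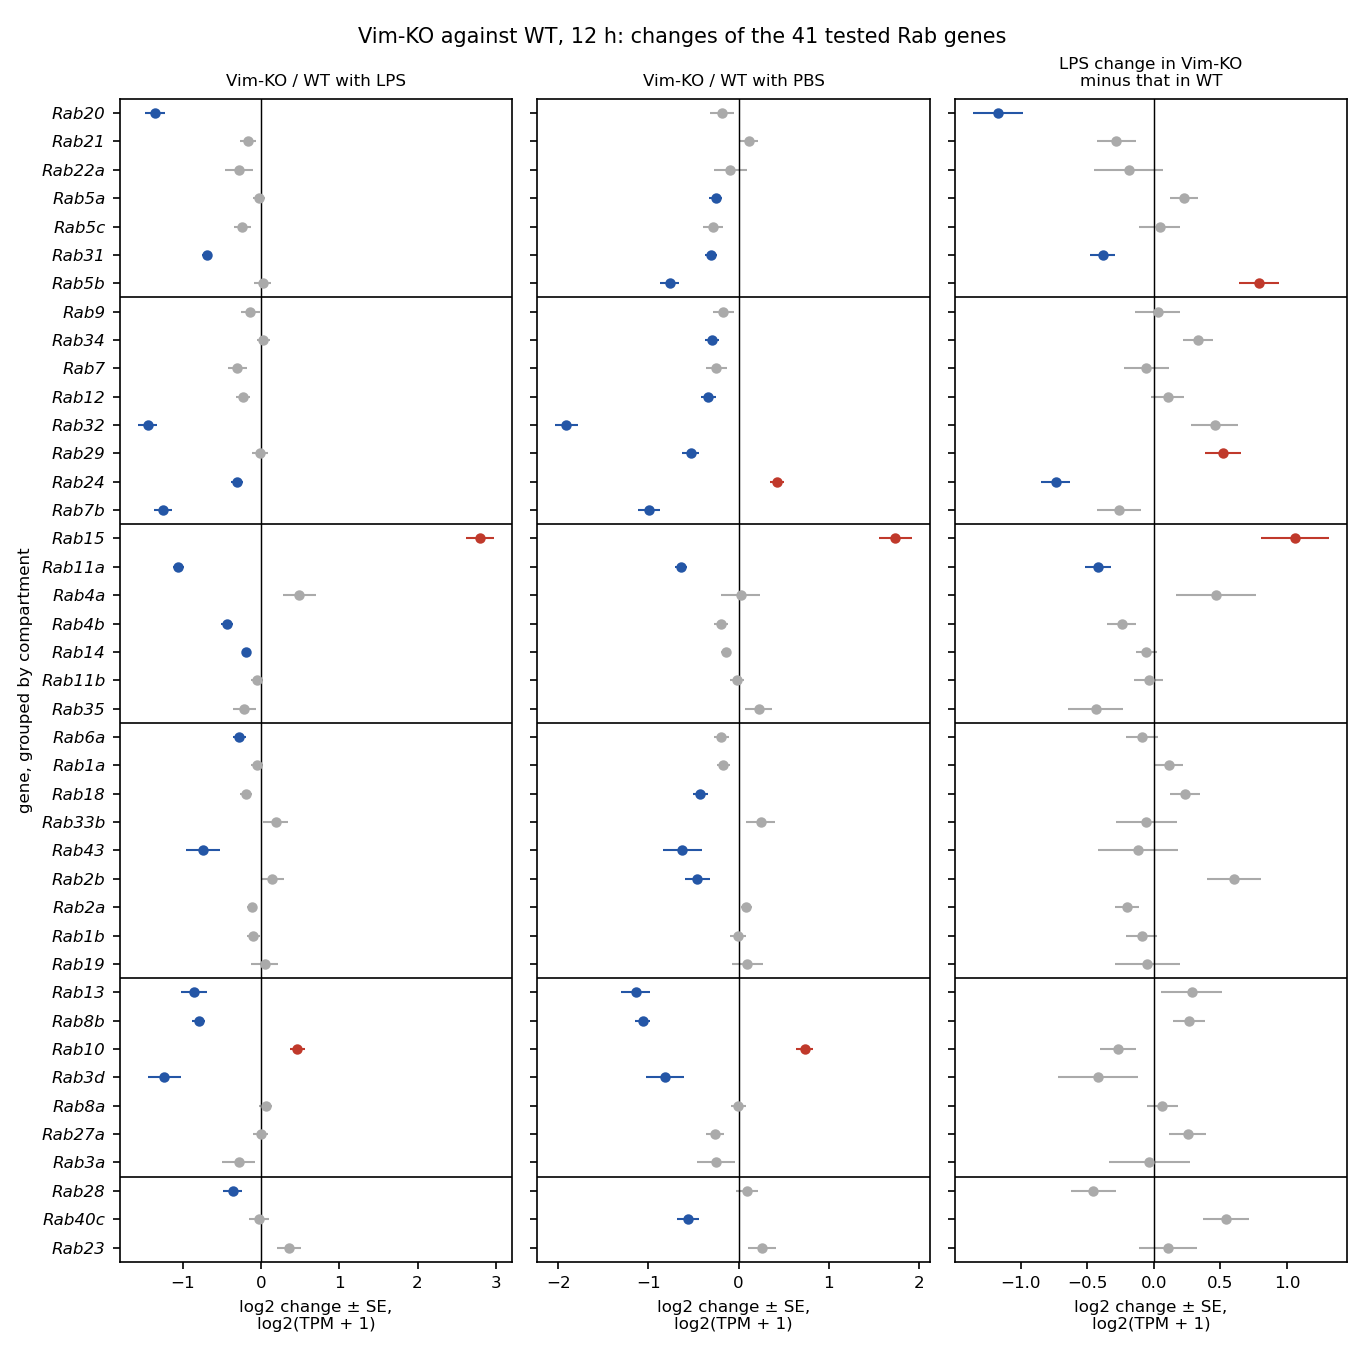
Log2(TPM + 1) difference ± SE of each tested Rab gene between Vim-KO and WT cells at 12 h, with LPS and with PBS, and the difference between genotypes in the LPS change (interaction). Red is higher and blue lower at an adjusted p under 0.05 and grey did not pass. Rab15 lies farthest to the higher side in each panel. Rab32 lies farthest to the lower side with LPS and with PBS, and Rab20 does so in the interaction panel.

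Rab32, a Rab of lysosome-related organelles and mitochondria, was lower in Vim-KO cells under both treatments. It measured 15.1 and 11.4 TPM in Vim-KO cells with LPS against 36.5 and 38.8 TPM in WT cells with LPS. With PBS the values were 10.1 and 9.87 TPM in Vim-KO cells against 38.8 and 41.8 TPM in WT cells. No Vim-KO library reached the lowest WT library (log2 difference −1.45 ± 0.12 with LPS and −1.91 ± 0.12 with PBS, limma adjusted p = 6.56e-05 and 1.5e-05). Rab7b stood at 6.23 and 5.65 TPM in Vim-KO cells with LPS against 13.8 and 17.5 TPM in WT cells with LPS. Under PBS it stood at 32.0 and 32.0 TPM in Vim-KO cells against 61.4 and 68.2 TPM in WT cells. The Vim-KO libraries lay below the WT libraries under each treatment (−1.25 with LPS and −0.99 with PBS, limma adjusted p = 0.00011 and 0.00036).

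Rab8b measured 55.1 and 49.2 TPM in Vim-KO cells with LPS against 88.2 and 94.8 TPM in WT cells with LPS. PBS gave 36.0 and 32.8 TPM in Vim-KO cells against 75.5 and 70.5 TPM in WT cells. It was lower without overlap in both (−0.80 ± 0.09 with LPS and −1.06 ± 0.09 with PBS, limma adjusted p = 0.000213 and 4.58e-05). Rab8a, its paralog, did not pass in either, with 101.3 and 99.9 TPM in Vim-KO cells against 101.7 and 100.0 TPM in WT cells with PBS. Rab13 measured 2.10 and 1.58 TPM in Vim-KO cells with LPS against 4.68 and 3.61 TPM in WT cells with LPS. With PBS the values were 2.56 and 2.13 TPM in Vim-KO cells against 6.41 and 6.30 TPM in WT cells. Both differences passed (−0.86 with LPS and −1.14 with PBS, limma adjusted p = 0.00376 and 0.000911). The WT cells of the separate 24 h experiment had 5.37 and 5.44 TPM of Rab13 with LPS and 3.53 and 3.01 TPM with PBS. Rab3d measured 1.82 and 1.00 TPM in Vim-KO cells with LPS against 4.38 and 4.85 TPM in WT cells with LPS (−1.24 ± 0.21, limma adjusted p = 0.0022). With PBS, at 10.4 and 7.05 TPM in Vim-KO against 15.2 and 16.8 TPM in WT cells, its call (−0.82) was lost without Vim-KO PBS library 2 (−0.57), WT PBS library 1 (−0.89) or WT PBS library 2 (−0.75).

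Rab15 was the member with the largest difference. The 13.4 and 14.5 TPM of Vim-KO cells with LPS, against 1.11 and 1.18 TPM in WT cells with LPS, made 12.2 times the WT mean (2.80 ± 0.18, limma adjusted p = 1.61e-05), and with PBS it stood at 3.83 and 3.32 TPM in Vim-KO against 0.155 and 0.621 TPM in WT cells (1.74 ± 0.18, limma adjusted p = 0.000177). The WT cells of the separate 24 h experiment had 12.0 and 11.6 TPM of Rab15 with LPS, near the 12 h Vim-KO values. With PBS they had 2.23 and 1.73 TPM, between the 12 h genotypes, and levels were not tested between experiments. Rab10 measured 112.7 and 93.3 TPM in Vim-KO cells with LPS against 70.9 and 77.8 TPM in WT cells with LPS. Under PBS it stood at 132.9 and 127.1 TPM in Vim-KO cells against 79.8 and 75.9 TPM in WT cells. All Vim-KO libraries exceeded all WT libraries (0.46 with LPS and 0.73 with PBS, limma adjusted p = 0.00603 and 0.000611). Exons of Rab10 overlap those of Rab10os on the opposite strand. Of 47 effectors, 5 were higher and 12 lower in Vim-KO cells with LPS (4 and 17 scaled), and 3 were higher and 20 lower with PBS (4 and 19 scaled). Of 35 GEFs, 8 were higher and 7 lower with LPS (5 and 8 scaled), and 4 were higher and 14 lower with PBS (4 and 12 scaled). Of 35 GAPs, 6 were higher and 9 lower with LPS (6 and 11 scaled), and 4 were higher and 14 lower with PBS (4 and 12 scaled). Of 10 escort genes, 2 were higher and 1 lower with LPS (1 and 5 scaled), and 1 was higher and 1 lower with PBS (1 and 1 scaled). Over all genes 24.1% were higher and 20.6% lower with LPS, and 17.7% and 25.4% with PBS. With scaled values these were 2270 and 2841 of 11097 genes with LPS, and 2357 and 2550 with PBS. Plekhm1, a Rab7 effector of lysosome fusion, measured 43.2 and 44.9 TPM in Vim-KO cells with PBS against 87.8 and 90.4 TPM in WT cells with PBS. The WT cells with PBS of the separate 24 h experiment had 39.5 and 38.3 TPM of Plekhm1. Tbc1d9 measured 0.796 and 0.698 TPM in Vim-KO cells with LPS against 7.78 and 9.20 TPM in WT cells with LPS (−2.44).

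The LPS change itself differed between genotypes for 7 members, against 20.6% of all genes. It was more positive in Vim-KO cells for Rab15, Rab29 and Rab5b (13.7% of genes) and more negative for Rab11a, Rab20, Rab24 and Rab31 (6.96%). With scaled values it was more positive for 2 members and more negative for 8, against 1092 and 1274 of 11097 genes. The count was 3 without WT PBS library 2, WT LPS library 2 or Vim-KO PBS library 2 in turn, 4 without WT PBS library 1, WT LPS library 1 or Vim-KO PBS library 1 in turn, and 11 without Vim-KO LPS library 1. Rab20, Rab24 and Rab5b passed in every leave-one-out fit.

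For Rab20 the LPS change was 1.17 in Vim-KO and 2.34 in WT cells, a difference of −1.17 ± 0.19 (limma adjusted p = 0.00457), with 12.1 and 11.8 TPM in Vim-KO against 29.7 and 35.0 TPM in WT cells with LPS. With PBS the genotypes did not pass for Rab20 (−0.18, adjusted p = 0.303). Rab24, linked to autophagy, measured 44.1 and 48.1 TPM with LPS against 65.9 and 65.3 TPM with PBS in Vim-KO cells. WT cells had 59.5 and 55.3 TPM with LPS against 46.6 and 50.4 TPM with PBS. It fell in Vim-KO cells (−0.50, limma adjusted p = 0.000594) and rose in WT cells (0.24, limma adjusted p = 0.0231), and the difference was −0.74 ± 0.11 (limma adjusted p = 0.00294). The WT increase lost its call without WT PBS library 1 (0.18, adjusted p = 0.143) or WT LPS library 1 (0.19, adjusted p = 0.128), and Rab24 exons overlap those of Prelid1 on the opposite strand.

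Rab5b, an early endosome Rab, measured 47.9 and 40.2 TPM with LPS against 25.2 and 23.2 TPM with PBS in Vim-KO cells. In WT cells the values were 40.1 and 46.4 TPM with LPS against 41.9 and 41.6 TPM with PBS. Only the Vim-KO cells with PBS stood low, and the difference in the LPS change was 0.79 ± 0.15 (limma adjusted p = 0.0102). For Rab15 the difference was 1.06 ± 0.26 (limma adjusted p = 0.0238), which was lost in 6 of 8 leave-one-out fits (0.82 to 1.31, adjusted p up to 0.0846). For Rab11a it was −0.42 ± 0.10 (limma adjusted p = 0.0231), for Rab31 −0.39 ± 0.09 (limma adjusted p = 0.0234) and for Rab29, a partner of the kinase LRRK2, 0.52 ± 0.14 (limma adjusted p = 0.034), and these were lost in 5, 5 and 6 of the 8 leave-one-out fits, with ranges of −0.51 to −0.33, −0.46 to −0.32 and 0.40 to 0.64. Rab29 measured 14.2 and 16.9 TPM with LPS against 17.9 and 18.0 TPM with PBS in Vim-KO cells. WT cells gave 16.0 and 15.3 TPM with LPS against 26.7 and 26.0 TPM with PBS.

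The liver table lists only genes about 2 times or more apart between WT LPS and WT PBS liver, so the direction of its 19 members in that comparison is fixed by the listing and is given as a description. After LPS, 6 were higher and 13 lower. On log2(TPM + 1), 2 were higher by at least 1 (20.6% of the 5298 listed genes) and 7 lower by at least 1 (46.3%), together 66.9% of listed genes. Rab20 stood at 24.9 TPM in WT LPS liver against 7.19 TPM in WT PBS liver, and Rab21 at 20.0 TPM against 9.99 TPM. Rab8b at 2.42 TPM against 0.590 TPM, and Rab30 at 5.83 TPM against 2.52 TPM, were also higher after LPS.

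Among the lower ones, Rab4a, of fast recycling, stood at 6.52 TPM in WT LPS liver against 32.1 TPM in WT PBS liver, Rab43, a Golgi Rab, at 27.1 TPM against 65.9 TPM, and Rab5b at 13.4 TPM against 38.0 TPM. Rab17, an epithelial Rab near 0 in the cell line, stood at 3.25 TPM against 10.8 TPM, Rab24 at 7.97 TPM against 18.9 TPM, Rab3a at 0.240 TPM against 5.08 TPM and Rab3d at 0.530 TPM against 3.25 TPM. Rab23, Rab27a, Rab27b, Rab36, Rab37, Rab44, Rab6b and Rab7b were at or below 1.18 TPM in all 7 livers. By the same listing, each listed marker of other cell types had to differ between the WT LPS and WT PBS livers. Markers not listed are not in the sums, which are given as a description. The 4 listed neutrophil markers summed to 70.6 TPM in WT LPS liver against 1.71 TPM in WT PBS liver, the 6 listed Kupffer markers to 29.5 TPM against 56.6 TPM and the 6 listed macrophage markers to 391 TPM against 50.5 TPM, and their part in the Rab values was not tested.

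The other liver pairs are limited to the same listed genes. The pairs of LPS plus CTM against LPS and of TG2-KO against WT after LPS use the WT LPS library whose values decided the listing, so their differences are partly conditioned on it. After LPS, liver with macrophage depletion had 7.42 TPM of Rab20 against 18.9 TPM in undepleted liver, 10.4 TPM of Rab21 against 18.4 TPM and 1.02 TPM of Rab8b against 2.43 TPM, while Rab30 was at 16.2 TPM in depleted against 5.14 TPM in undepleted liver. Rab20 was the 1 member lower by at least 1 on log2(TPM + 1), against 6.25% of listed genes, and Rab30 the 1 member higher, against 2.59% (8.83% in either direction). The 6 listed Kupffer markers summed to 10.4 TPM in depleted and 68.7 TPM in undepleted liver (Clec4f 0.210 and 12.3 TPM), the 4 listed neutrophil markers to 191 and 106 TPM, and the 6 listed macrophage markers, mostly Cd14, to 559 and 345 TPM, the 5 listed endothelial markers to 59.5 and 43.5 TPM and the 2 listed stellate markers to 12.4 and 7.10 TPM. None of these listed markers was at 0 in either liver, and their part in the Rab values was not tested.

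With LPS plus CTM, WT liver had 15.8 TPM of Rab30 against 5.83 TPM with LPS alone, and it was the 1 member past 1 on log2(TPM + 1) (1.59% of listed genes, 0.698% higher and 0.887% lower). Rab20 was at 18.5 TPM with LPS plus CTM against 24.9 TPM with LPS. In TG2-KO mice, Tgm2, the deleted gene, stood at 15.5 TPM after LPS and 0.740 TPM after PBS, against 425 and 35.7 TPM in WT liver. TG2-KO liver after LPS had 19.8 TPM of Rab20 against 7.54 TPM after PBS, and 10.8 TPM of Rab30 against 2.06 TPM, and these were the 2 members higher by at least 1 on log2(TPM + 1), against 14.8% of listed genes. Another 2 members were lower by at least 1, against 17.1% (31.9% in either direction). Between TG2-KO and WT liver after LPS no member was past 1 in either direction (6.3% of listed genes, 4.27% higher and 2.04% lower), and genotype and extraction date cannot be told apart there. Across the 7 livers, Rab20 stood at 18.5 TPM or more in every LPS liver except the depleted one, whose 7.42 TPM lay between the 7.54 and 7.19 TPM of the PBS livers of TG2-KO and WT mice. The depleted liver and these PBS livers are 1 library each from different extraction dates. Its LPS dose is not given, so its place among them is a description only. Rab20 was also listed because of its WT LPS and WT PBS values.

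**Figure D5:**
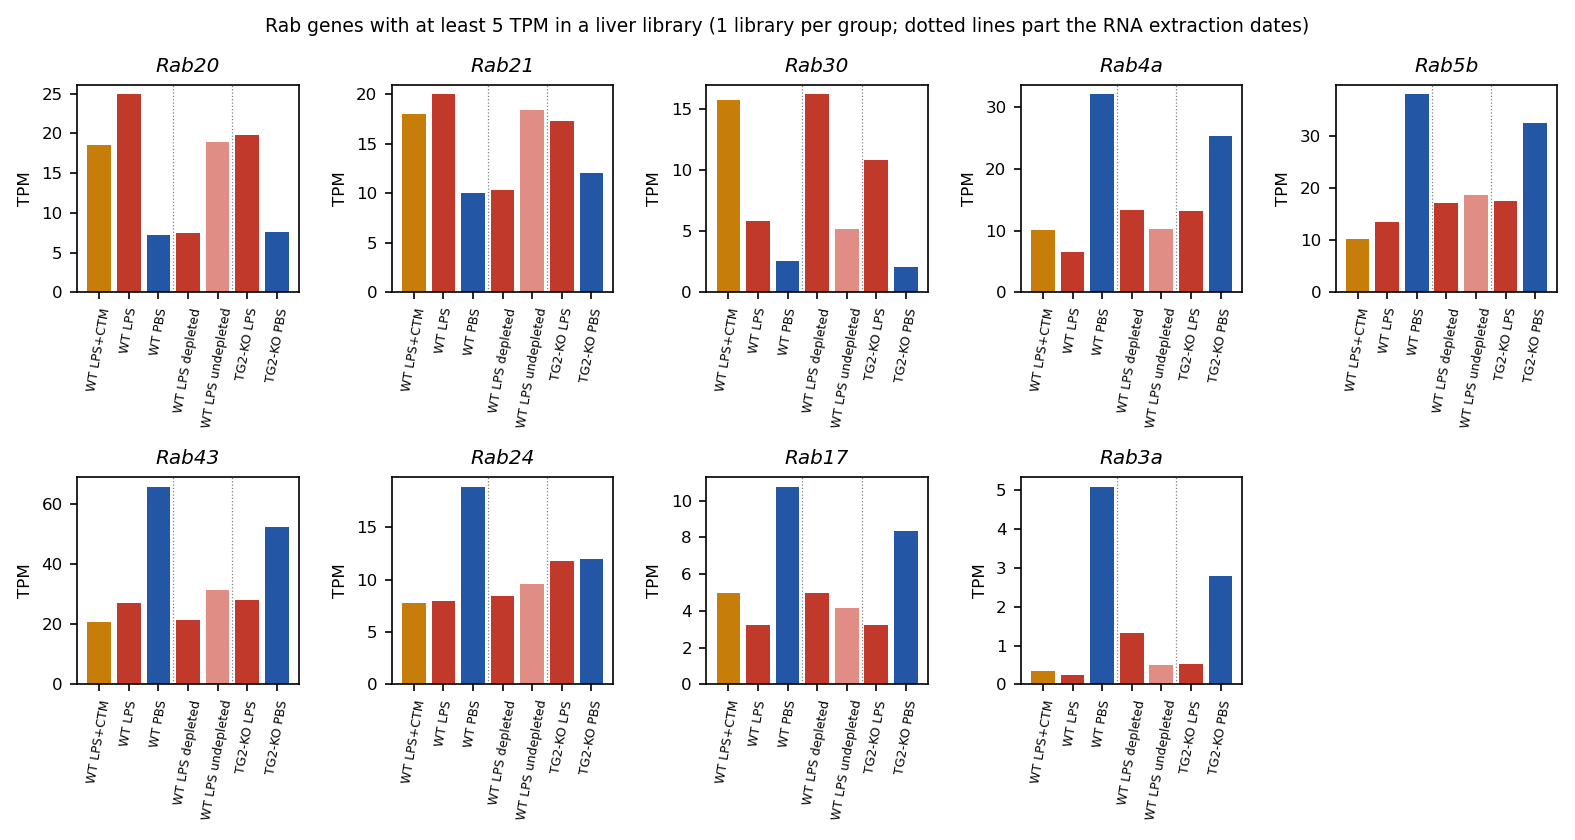
TPM in each of the 7 liver libraries of the 9 Rab genes that reached 5 TPM in at least 1 of them, as bars that start at 0, with dotted lines between RNA extraction dates. Each bar is 1 library; Rab20 is at 7.42 TPM in depleted and 18.9 TPM in undepleted liver after LPS, and Rab30 is at 16.2 and 5.14 TPM.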

How the data were processed

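RNA was sequenced from 14 RAW264.7 libraries and 7 mouse livers with a stranded mRNA library kit, per the labels' protocols. Per the submitters' processing notes, reads were quantified with Salmon against mm10 (GRCm38), and the versions, annotation and strand setting are not given in the sources used here. The deposited values are TPM, made by the authors, which sum to 993386 to 999191 in each cell line library and 153180 to 336332 in each liver library, whose table lists part of the genes. Depth cannot be recovered from TPM.

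Each cell line experiment was fitted on its own with limma 3.58.1 (R 4.3.3) on log2(TPM + 1), with 1 mean per group, variance moderated along a trend with the mean, and p-values adjusted by Benjamini-Hochberg over every gene that averaged at least 1 TPM, and only the Rab rows and listed partners are reported. The fit was tested on simulated data. Liver comparisons have 1 library per group and no test. Coordinates and overlaps came from the GRCm38 annotation, promoters from RefSeq. The members, compartment lists and partner lists were chosen with earlier results of these data known. Members were named in full when a call had an absolute log2 change of at least 1, no overlap and 5 TPM or more, when the interaction passed, or when listed in liver, and others as examples of a group. Up to 3 partners per list and comparison qualified by size of change, among called genes with no overlap and 5 TPM or more. At 24 h the deposited columns number the LPS and the LPS plus CTM libraries 2 and 3 where the labels give 1 and 2, so they were matched to their group only. Alternatives varied the pseudocount, the expression filter, scaling, the trend, the groups fitted, a minimum change, the replicate block and the libraries kept.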

Additional observations from a re-analysis of the deposited data

Results flagged for a closer look

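For 7 Rab genes the LPS change at 12 h differed between Vim-KO and WT cells by the limma interaction test (adjusted p under 0.05). Subtracting the WT change from the Vim-KO change gave −1.17 for Rab20, −0.74 for Rab24, −0.42 for Rab11a, −0.39 for Rab31, 0.52 for Rab29, 0.79 for Rab5b and 1.06 for Rab15 on the log2(TPM + 1) scale. Those of Rab20, Rab24 and Rab5b passed in each of the 8 fits that left out 1 library, and the other 4 did not.

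A further flag needed WT calls at both times with opposite signs, and no overlap between LPS and PBS libraries at either time. For 4 Rab genes the LPS change of WT cells met this rule. It was 0.59 at 24 h and −0.52 at 12 h for Rab13, −0.49 and 0.24 for Rab24, −0.16 and 0.50 for Rab31, and 0.42 and −0.95 for Rab9. Under median-of-ratios scaling the 24 h value of Rab31 was 0.0971, the same sign as at 12 h, and its 24 h call was lost without any 1 library. The 24 h calls of Rab9 and Rab13 and the 12 h calls of Rab13 and Rab24 were also lost without 1 library in some fits. The times were separate experiments, and the difference between them was not tested.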

How the results depend on the processing

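Over all alternatives of the 154 called changes of members, 1928 of 2327 values kept direction and call, 393 lost the call (115 of them under the minimum log2 change of 1) and 6 changed sign. All 6 came under median-of-ratios scaling and none passed there: Rab10 (0.0758) and Rab31 (0.0971) for LPS at 24 h, Rab14 (0.0589), Rab1b (0.142) and Rab8a (0.0245) for LPS in WT cells, and Rab2a (0.0947) for LPS in Vim-KO cells. A minimum log2 change of 1 left 6 members for LPS at 24 h, 1 for LPS plus CTM against LPS, 4 against PBS, 8 for LPS in Vim-KO and 8 in WT cells, 6 for Vim-KO against WT with LPS, 4 with PBS and 2 for the interaction. For LPS plus CTM against LPS (12 members), 7 were called with no filter, 4 without the trend and 6 with the replicate block. Leaving out each library in turn gave 19 to 25 members for LPS at 24 h, 2 to 8 for LPS plus CTM against LPS, 16 to 19 against PBS, 21 to 29 for LPS in Vim-KO and 20 to 29 in WT cells, 12 to 22 for Vim-KO against WT with LPS, 13 to 21 with PBS and 3 to 11 for the interaction. A lone library left in a group is assumed to vary like the others. In liver, a pseudocount of 0.1 put 18 members past 1 for WT LPS against PBS (9 with a pseudocount of 1), 4 for CTM (1), 6 for depletion (2), 9 for TG2-KO LPS against PBS (4) and 1 for TG2-KO against WT (0), and a difference of at least 2 left 2, 0, 0 and 0 in the first 4. Over all genes, the minimum change left 2296 of 7277 calls for LPS at 24 h, 254 of 2823 for LPS plus CTM against LPS, 1229 of 5839 against PBS, 2444 of 7376 for LPS in Vim-KO and 2712 of 7881 in WT cells, 916 of 4966 for Vim-KO against WT with LPS, 969 of 4782 with PBS and 710 of 2292 for the interaction. Without 1 library the fewest genes called were 1153 for LPS plus CTM against LPS, 3186 for Vim-KO against WT with PBS and 1203 for the interaction.

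Same-numbered libraries did not deviate together at 12 h (correlation across genes −0.22 to 0.10) or between LPS plus CTM and LPS at 24 h (−0.03), so the numbers are not read as pairs. With the replicate block 28 members were called for LPS in Vim-KO and 27 in WT cells, 16 for Vim-KO against WT with LPS, 18 with PBS and 6 for the interaction. With the numbers of the WT LPS libraries crossed, an alternative chosen after seeing the data, 29 were called for LPS in WT cells and 18 for Vim-KO against WT with LPS. The 24 h PBS libraries share too few numbers for a block. The fit of only the contrast's own groups gave no value for the interaction, which uses all 4. The unknown depth limits what the low members can show.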
